A study of Mus musculus with 8 samples.

Results

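The genes described here encode the machinery that copies DNA and supplies its nucleotides. The set has 49 genes, from the origin recognition complex and the MCM helicase to thymidylate synthase. All 49 had a probe under their own symbol in the platform annotation, out of 15094 named genes on the array. The genes are listed by function, with no cut on their measured values, but the list was chosen with earlier results of these data known.

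The arrays compared 2 kinds of mouse neurosphere culture, derived from embryonic cortex at gestational day 12.5. Ethanol-exposed cultures received 320 mg/dl ethanol for 5 days in growth medium and then differentiated for 3 days without it. Control cultures differentiated without prior ethanol. In both, differentiation was started by taking away epidermal growth factor and leukaemia inhibitory factor, so that fibroblast growth factor (20 ng/ml in the growth medium) was the mitogen that remained. RNA of both kinds was hybridised together on each of 8 two-colour arrays, in opposite dye orientations. Ethanol-exposed RNA carried Cy5 on replicates 5 to 8 and Cy3 on replicates 1 to 4. The number of litters or cultures behind the arrays is not given in the sources used here, so p-values measure the spread between arrays, which may be technical. In whole cultures, a different number of dividing cells and a different amount of RNA per dividing cell cannot be told apart.

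Before each S phase, the origin recognition complex marks origins and, with Cdc6 and Cdt1, loads the MCM helicase onto DNA. The kinase Cdc7 with its activator Dbf4, and then Cdc45 and the GINS complex, turn the loaded helicase into a moving fork. Polymerases, primase, the sliding clamp PCNA and its loader RFC copy the strands, and ribonucleotide reductase and thymidylate synthase make the precursors. In the embryonic cortex these genes are active in cycling progenitors and are shut down as neurons leave the cell cycle. Many of them are regulated by the E2F transcription factors.

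E2F recognition sequences were looked for in promoter windows of RefSeq (GRCm38.p6), which run from 250 bases before to 50 bases after a transcription start. The motif was searched on both strands as TTTCCCGC, TTTCGCGC, TTTGCCGC or TTTGGCGC, with overlapping matches counted. Of the 49 genes 42 had a window, and 13 of these (31.0%) held the motif, against 2.61% of all 27025 genes with a window. The 13 were Cdc6, Cdt1, Lig1, Mcm3, Mcm5, Mcm6, Mcm7, Orc1, Orc3, Pola1, Pold1, Pole2 and Rfc3. The stretches below are shown because they belong to subunits of 1 helicase whose estimates from the arrays were of unlike size, as described further on. None of the differences between these subunits passed after adjustment for the number of pairs tested. Letters in capitals mark the motif on either strand; for Mcm7 1 of its 2 matches is shown, and for the others all. They lie at chr1:20820263-20820313 (minus strand) for Mcm3, chr8:75109336-75109387 (plus strand) for Mcm5, chr1:128359725-128359835 (minus strand) for Mcm6 and chr5:138171840-138171887 (minus strand) for Mcm7.
Mcm3: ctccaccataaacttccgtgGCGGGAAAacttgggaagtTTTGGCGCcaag
Mcm5: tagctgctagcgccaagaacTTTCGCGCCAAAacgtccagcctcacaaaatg
Mcm6: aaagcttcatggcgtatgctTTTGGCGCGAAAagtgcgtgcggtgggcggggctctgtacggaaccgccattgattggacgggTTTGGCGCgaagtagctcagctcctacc
Mcm7: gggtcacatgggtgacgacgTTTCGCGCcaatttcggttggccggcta

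The deposited values are log2 ratios, with no intensities, so that they show differences between the RNAs of an array and not levels. Each array was centred on its median. The direction of the ratio could not be settled, because the labels give neither the numerator channel nor whether the dye flips were inverted. Each probe was therefore described by 2 quantities. The shared part is the average of the means of both orientations, and the turning part is the distance of the ethanol-in-Cy5 mean from that average, so that its sign is that of ethanol in Cy5 minus ethanol in Cy3. If the authors divided 1 condition by the other throughout, the shared part carries the ethanol effect. If they divided 1 dye by the other, the turning part does. In each case the ethanol effect cancels from the other part, which then describes no difference between the cultures. Signs are those of the deposited ratios, and a positive value is not a statement that ethanol-exposed cells had more of a transcript.

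A probe was tested where it had a ratio on 3 or more arrays of each orientation, which held for 15345 of 21582 probes. Of the replication genes 47 were tested, each by 1 probe, 39 of them with values on all 8 arrays and 8 with values on 7. Prim1, the catalytic primase subunit, had values on 2 arrays with ethanol in Cy5 and 4 with ethanol in Cy3, from -0.80 to 2.17. Rpa2, of the single-strand binding protein RPA, had 2 values in each orientation, from -1.49 to 4.04. Neither was tested, nor were second probes of Gins2 and Mcm10. Arrays had a computable ratio for 75.4% to 87.1% of their probes.

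In the shared part, the replication genes lay mostly on the positive side. Their median was 0.56 on the log2 scale, against -0.040 over all 11397 named genes tested. Positive values were held by 34 of 47 members (72.3%), against 47.6% of all named genes. At an unadjusted p under 0.05, 19 members (40.4%) were positive, where 4.88% of all probes tested were. Only 3 members (6.38%) passed this mark on the negative side, where 9.01% of all probes did. After Benjamini-Hochberg adjustment over all probes with limma, 0 of 47 members passed 0.05, as did 0 of all 15345 probes (0%), with a smallest adjusted p of 0.136, that of Rfc2. The helicase (median 1.43, 10 genes), nucleotide supply (1.27, 5 genes) and the group of flap endonuclease, ligase and topoisomerase (0.90, 3 genes) had the highest medians. The last group was split, with Top1 at -1.43. The origin recognition complex alone among the 9 roles had a negative one (-0.41).

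**Figure D1:**
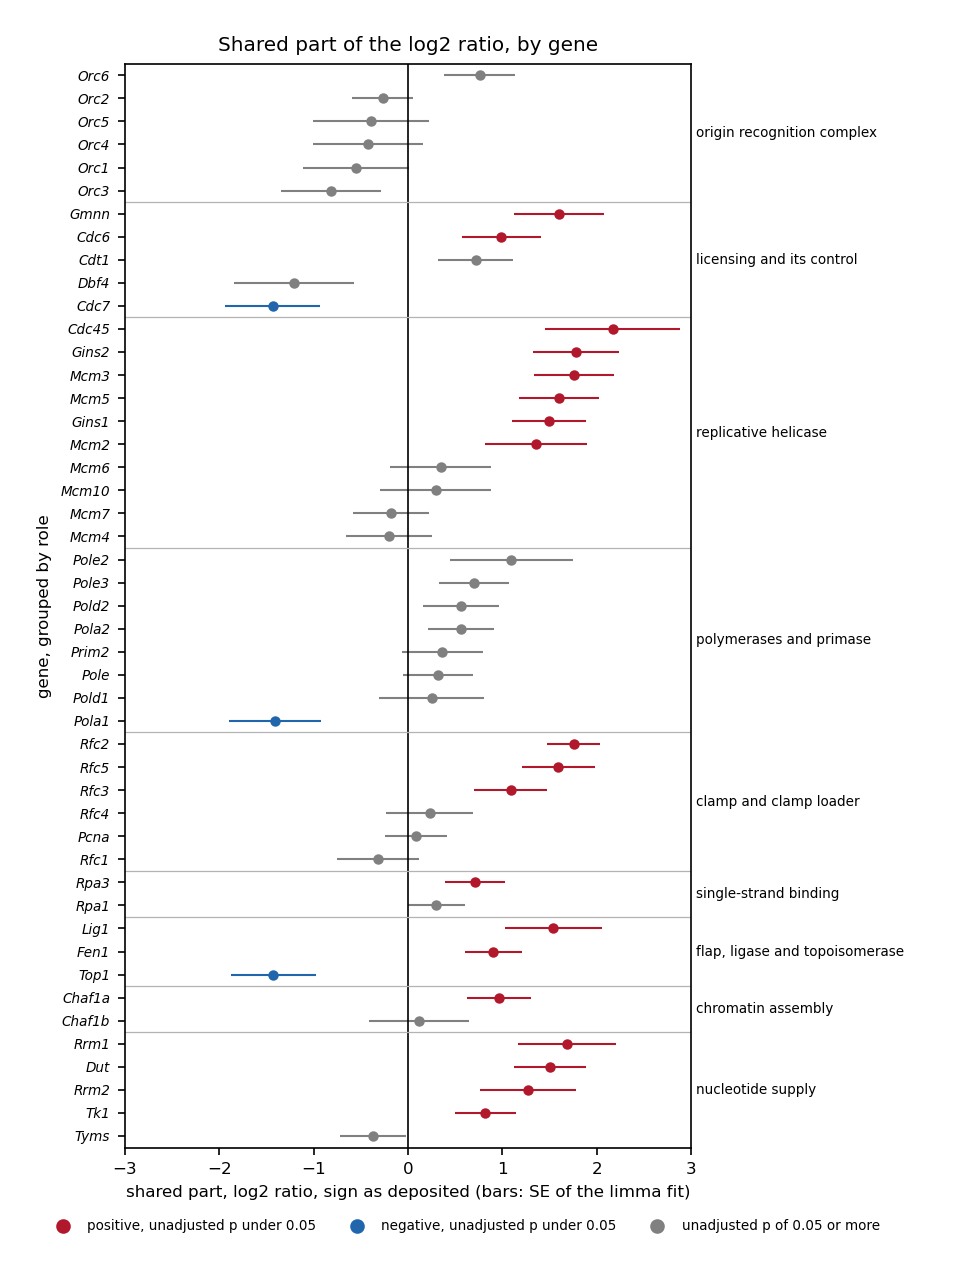
Shared part of the log2 ratio (horizontal axis, sign as deposited) for the 47 tested genes, grouped by role and ordered by value within a role. Points are estimates and bars the SE of the limma fit. The 19 red points are positive and the 3 blue points (Cdc7, Pola1 and Top1) negative at an unadjusted p under 0.05, and none passes after adjustment over all probes.

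Positive ratios were found in both orientations. The mean over the arrays with ethanol in Cy5 was positive for 36 of 47 members, and that over the arrays with ethanol in Cy3 for 32. Both were positive for 28 members (59.6%), against 25.5% of all named genes. Of the 19 members positive at p under 0.05, 17 had positive means in both orientations, the exceptions being Cdc45 and Tk1. On every array with a value, 6 members were positive (12.8%), where 1.82% of all probes were. They were Dut, Fen1, Mcm3, Mcm5, Rfc2 and Rfc5, and no member was negative on every array.

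The size of the shift differed between arrays. The median over the members was 0.31, 1.31, 0.94 and 0.63 on replicates 5, 6, 7 and 8, with ethanol in Cy5. With ethanol in Cy3 it was 0.054, 1.06, 1.48 and -0.32 on replicates 1, 2, 3 and 4. Replicate 4 alone had a negative median, with 16 of 47 members positive, whereas 23 of 45 were positive on replicate 1 and 30 to 36 on each other array. Over all named genes the array medians lay between -0.17 and 0.20, and that of replicate 4 was -0.14. The members deviated together: after the orientation means were removed, the mean Pearson correlation between 2 members over the 8 arrays was 0.35 (39 members with values on all arrays). Over 8230 genes it was 0.032. This is a description, since genes of an array share its RNA, its scan and its centring.

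**Figure D2:**
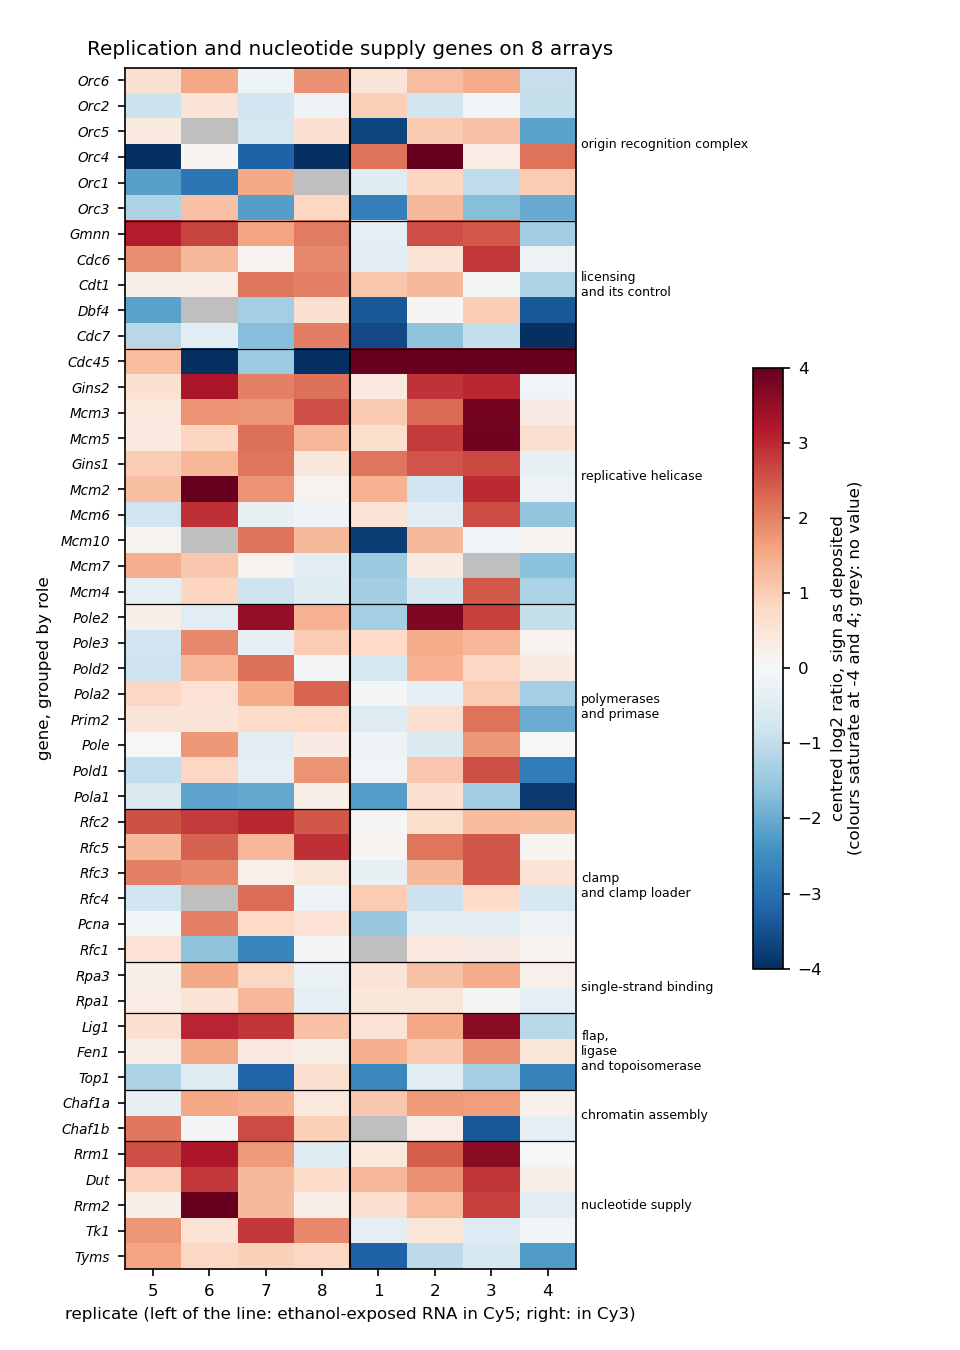
Centred log2 ratio (colour, sign as deposited) of the 47 tested genes (rows, by role) on the 8 arrays (columns), with ethanol-exposed RNA in Cy5 left of the line and in Cy3 right of it; grey marks a missing value. Replicates 1 and 4 are the palest or bluest columns, with 23 of 45 and 16 of 47 genes positive, and Cdc45 and Orc4 change colour at the line.

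Genes of the replicative helicase included 6 of 10 that were positive at p under 0.05, namely Cdc45, Gins2, Mcm3, Mcm5, Gins1 and Mcm2. Of these, Cdc45 had means of opposite sign in the orientations and is described with the turning part. The MCM subunit gene Mcm3 read 0.41, 1.81, 1.78 and 2.58 on replicates 5 to 8 with ethanol in Cy5, and 1.06, 2.28, 3.81 and 0.34 on replicates 1 to 4 with ethanol in Cy3. All 8 values were positive and the orientations overlapped, with a shared part of 1.76 ± 0.43 (SE, n = 8 arrays, limma adjusted p = 0.18). Its partner Mcm5 read 0.39, 0.86, 2.21 and 1.34 with ethanol in Cy5, and 0.72, 2.78, 3.87 and 0.64 with ethanol in Cy3. Replicate 3 was the highest for both genes, and Mcm5 had a shared part of 1.60 ± 0.43 (adjusted p = 0.206).

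GINS joins the MCM ring and Cdc45 in the active helicase. Its subunit gene Gins2 read 0.61, 3.26, 2.01 and 2.20 with ethanol in Cy5, and 0.38, 2.90, 3.01 and -0.12 with ethanol in Cy3. Gins1 read 1.01, 1.34, 2.14 and 0.47 with ethanol in Cy5, and 2.15, 2.53, 2.64 and -0.32 with ethanol in Cy3. In each of the 2 genes only replicate 4 was below 0, and the shared parts were 1.78 ± 0.46 for Gins2 (adjusted p = 0.198) and 1.50 ± 0.40 for Gins1 (adjusted p = 0.206). A second Gins2 probe, with values on 5 arrays, lay between -1.30 and 1.31. It read -0.60, -1.30 and -0.60 on replicates 5, 8 and 1, where the first probe was positive. On replicates 7 and 2 both probes were positive.

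Of the remaining ring subunits, Mcm2 had a shared part of 1.36 ± 0.54 (unadjusted p = 0.0313), with 4.36 on replicate 6 and -0.80 on replicate 2. The others were nearer to 0. Mcm6 read 0.35 ± 0.54, Mcm7 -0.18 ± 0.40 and Mcm4 -0.20 ± 0.46, with unadjusted p-values from 0.534 to 0.663. Mcm10, a fork factor outside the ring, read 0.29 ± 0.59 over 7 arrays. Its second probe, with 2 values in each orientation, lay between -2.77 and 2.78. On replicate 8 that probe read -1.229, where the first read 1.285, while on replicates 2 and 3 both had the same sign. The 4 ring subunits whose promoter stretches are shown above thus comprised Mcm3 and Mcm5, positive on every array, and Mcm6 and Mcm7, whose values were of both signs. Among members with a promoter window, the E2F motif was present in 5 of the 15 that were positive at p under 0.05, in 1 of the 3 negative ones (Pola1) and in 7 of the 22 others.

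Differences between subunits of a complex were tested within each array, which does not depend on the centring. For the MCM ring, the origin recognition complex and replication factor C there were 40 pairs, compared over arrays by flipping signs in an exact test (two-sided). Mcm3 exceeded Mcm4 on 8 of 8 arrays, by 1.96 ± 0.91 (SD). The exact p of 0.00781 is the smallest that 8 arrays allow, and it became 0.0893 after adjustment over the 40 pairs. Mcm5 exceeded Mcm4 by 1.81 ± 1.13 on 7 of 8 arrays (exact p = 0.0156, adjusted p = 0.0893). Mcm2 exceeded Mcm4 by 1.56 ± 1.28, also on 7 of 8 arrays and with the same exact and adjusted p. Mcm2 was not told apart from Mcm3 (exact p = 0.531) or Mcm5 (exact p = 0.68). In all, 12 pairs had an unadjusted p under 0.05 (6 in the MCM ring, 3 in the origin recognition complex, 3 in replication factor C), and 0 passed after adjustment. The pairs are not separate results. All 3 of the origin recognition complex contained Orc6, and all 3 of replication factor C contained Rfc1.

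**Figure D3:**
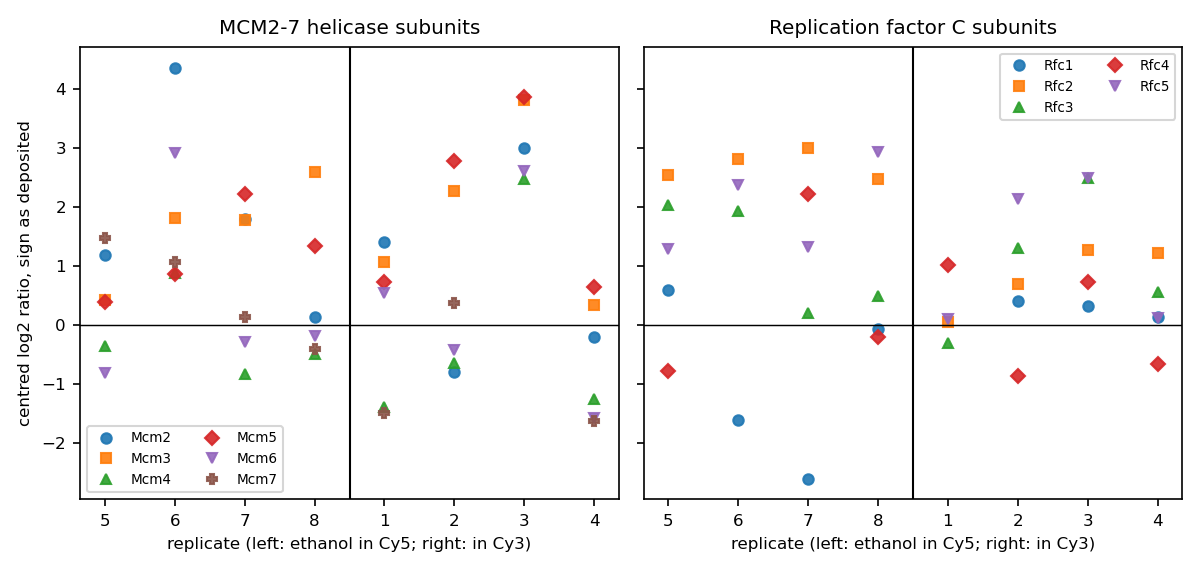
Centred log2 ratio (vertical axis, sign as deposited) of the MCM ring subunits (left panel) and the replication factor C subunits (right panel) on each array (horizontal axis), with ethanol-exposed RNA in Cy5 left of the line. Mcm3 lies above Mcm4 on all 8 arrays, and Rfc2 above Rfc1 on all 7 arrays that measured both.

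Replication factor C loads PCNA onto primed DNA, and 3 of its 5 subunit genes were positive at p under 0.05. Rfc2 read 2.55, 2.80, 3.00 and 2.47 with ethanol in Cy5, and 0.054, 0.69, 1.26 and 1.21 with ethanol in Cy3. Every value was positive, and the Cy5 arrays all lay above the Cy3 arrays, so that Rfc2 had both a shared part of 1.75 ± 0.28 (n = 8, adjusted p = 0.136) and a turning part of 0.95 ± 0.28 (adjusted p = 0.151). Rfc5 read 1.29, 2.37, 1.32 and 2.93 with ethanol in Cy5, and 0.090, 2.13, 2.50 and 0.12 with ethanol in Cy3. It was positive on all arrays, with a shared part of 1.59 ± 0.39 (adjusted p = 0.18). Rfc3 had a shared part of 1.09 ± 0.39 (unadjusted p = 0.0188), and Rfc4 of 0.23 ± 0.46. The large subunit gene Rfc1 read -0.32 ± 0.43, and Rfc2 exceeded it by 2.40 ± 1.96 (SD) on 7 of 7 arrays (exact p = 0.0156, adjusted p = 0.0893). This difference ran from 0.285 to 5.61. It was larger on each array with ethanol in Cy5 than on any with ethanol in Cy3, so that its mean and SD pool unlike orientations. PCNA itself had a shared part of only 0.088 ± 0.33.

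Of the genes that supply nucleotides, 4 of 5 were positive at p under 0.05. Dut, the dUTPase that keeps uracil out of DNA, read 0.92, 2.83, 1.30 and 0.73 with ethanol in Cy5, and 1.34, 1.82, 2.85 and 0.24 with ethanol in Cy3. It was positive throughout and hardly differed between the orientations, with a shared part of 1.50 ± 0.38 (adjusted p = 0.185) and a turning part of -0.057 ± 0.38. Rrm1, the large subunit of ribonucleotide reductase, read 2.59, 3.22, 1.70 and -0.48 with ethanol in Cy5, and 0.43, 2.40, 3.60 and -0.015 with ethanol in Cy3. Replicates 8 and 4 were thus at or below 0, and the shared part was 1.68 ± 0.52 (adjusted p = 0.232). Rrm2, the small subunit, had 1.27 ± 0.51 (unadjusted p = 0.0313), with 4.19 on replicate 6. The exception was thymidylate synthase, described with the turning part.

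Among genes that join and package new DNA, Lig1, the ligase that seals Okazaki fragments, read 0.65, 3.06, 2.85 and 1.16 with ethanol in Cy5, and 0.53, 1.54, 3.61 and -1.11 with ethanol in Cy3. Its shared part was 1.54 ± 0.51 (adjusted p = 0.253), with replicate 4 the only negative array. Fen1, which trims the flaps before ligation, read 0.26, 1.52, 0.40 and 0.23 with ethanol in Cy5, and 1.43, 1.06, 1.84 and 0.49 with ethanol in Cy3. These values were small but all positive (shared part 0.90 ± 0.30, adjusted p = 0.254). Chaf1a, of the chromatin assembly factor CAF-1, read 0.96 ± 0.34 (unadjusted p = 0.0169), and Chaf1b 0.12 ± 0.53 over 7 arrays. Of the single-strand binding protein genes, Rpa3 read 0.71 ± 0.32 (unadjusted p = 0.0481) and Rpa1 0.30 ± 0.30.

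Genes that license origins were divided. Gmnn, which encodes geminin, the inhibitor of Cdt1, read 3.13, 2.71, 1.59 and 2.09 with ethanol in Cy5, and -0.36, 2.57, 2.44 and -1.38 with ethanol in Cy3. Replicates 1 and 4 were the negative ones, and the shared part was 1.60 ± 0.48 (adjusted p = 0.231). The loading factor genes Cdc6 and Cdt1 read 0.99 ± 0.42 (limma unadjusted p = 0.0393) and 0.72 ± 0.40 (limma unadjusted p = 0.101).

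Cdc7, the kinase that fires origins, read -1.10, -0.45, -1.71 and 2.04 with ethanol in Cy5, and -3.60, -1.61, -0.95 and -4.09 with ethanol in Cy3. It was negative on 7 of 8 arrays, replicate 8 being the exception, with a shared part of -1.43 ± 0.50 (adjusted p = 0.263). Its activator Dbf4 read -1.20 ± 0.63 over 7 arrays (unadjusted p = 0.0893).

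The other 2 members negative at p under 0.05 were a topoisomerase and a polymerase gene. Top1, which relieves the twist ahead of forks and of transcription, read -1.26, -0.50, -3.20 and 0.65 with ethanol in Cy5, and -2.58, -0.46, -1.34 and -2.72 with ethanol in Cy3. It was negative on all arrays but replicate 8 (shared part -1.43 ± 0.45, adjusted p = 0.236). Pola1, the catalytic subunit of the polymerase that extends primers, read -0.57, -2.11, -2.04 and 0.24 with ethanol in Cy5, and -2.20, 0.62, -1.39 and -3.82 with ethanol in Cy3. Its shared part was -1.41 ± 0.49 (adjusted p = 0.263), with replicates 8 and 2 positive.

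No polymerase or primase gene was positive at p under 0.05. The other 7 tested genes of this role all had positive shared parts, from 0.25 ± 0.56 for Pold1, the catalytic subunit of polymerase delta, to 1.10 ± 0.65 for Pole2, a subunit of polymerase epsilon. Pole3 read 0.70 ± 0.37, Pold2 0.56 ± 0.41, Pola2 0.56 ± 0.35, Prim2 0.37 ± 0.43 and Pole 0.32 ± 0.37. In the origin recognition complex 5 of 6 genes were negative and none passed p of 0.05. Orc6 read 0.76 ± 0.38, Orc2 -0.27 ± 0.33, Orc5 -0.39 ± 0.62, Orc4 -0.42 ± 0.58, Orc1 -0.55 ± 0.56 and Orc3 -0.82 ± 0.53. No pair among the 5 negative genes had an exact p under 0.05, so that their order is not resolved.

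In the turning part the set stood nearer to the array's background than in the shared part. Its median was 0.19, against 0.10 over all named genes. As in the shared part, 34 of 47 members (72.3%) were positive, here against 57.1% of all named genes. At an unadjusted p under 0.05, 6 of 47 members (12.8%) were positive and 2 (4.26%) negative, where 8.69% and 5.14% of all probes tested were. Adjusted over all probes, 1 member passed with limma, as did 239 of 15345 probes (1.56%). Orientation ranges did not overlap for 6 members. They were Rfc2, Tyms, Tk1 and Pcna with higher ratios where ethanol was in Cy5 (4 of 47, where 5.68% of all probes did so), and Cdc45 and Orc4 with lower ones (2 of 47, where 5.21% of all probes did so).

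Cdc45, the helicase cofactor, was the member that passed. It read 1.24, -4.86, -1.44 and -6.29 with ethanol in Cy5, and 6.38, 7.38, 8.20 and 6.72 with ethanol in Cy3. The ranges were far apart, and the values with ethanol in Cy5 were widely spread, with a mean of -2.84 ± 3.39 (SD, n = 4) against 7.17 ± 0.80 (SD, n = 4). The turning part was -5.01 ± 0.72 (limma adjusted p = 0.0054), while the shared part was 2.17 ± 0.72 (adjusted p = 0.25). Without replicates 3, 4 and 8, whose array codes end in r, the turning part was -4.29 and no longer passed (adjusted p = 0.159). As the shared part of Cdc45 averages 2 opposite orientations, it does not describe a ratio seen on all arrays.

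Orc4, of the origin recognition complex, turned the same way without passing. It read -4.98, 0.073, -3.23 and -3.99 with ethanol in Cy5, and 2.18, 4.10, 0.28 and 2.18 with ethanol in Cy3. Its turning part was -2.61 ± 0.58 (adjusted p = 0.0598). Without replicate 6, whose value lay near 0, it was -3.13 (adjusted p = 0.0136). Without each other array in turn the adjusted p was 0.0549 to 0.155, and without replicates 3, 4 and 8 it was 0.299.

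Tyms, thymidylate synthase, turned the other way. It read 1.59, 0.84, 0.94 and 0.83 with ethanol in Cy5, and -3.24, -1.04, -0.64 and -2.27 with ethanol in Cy3. The sign thus followed the orientation on all 8 arrays, with a turning part of 1.42 ± 0.35 (adjusted p = 0.0864) and a shared part of -0.37 ± 0.35. With the arrays uncentred, which adds 0.32 to the turning part of every gene with values on all arrays, it was 1.74 and passed (adjusted p = 0.0326). Without each array in turn the adjusted p was 0.0679 to 0.169, and without replicates 3, 4 and 8 it was 0.331. Tk1, the thymidine salvage kinase, read 1.75, 0.57, 2.83 and 1.91 with ethanol in Cy5, and -0.35, 0.47, -0.51 and -0.12 with ethanol in Cy3. Its turning part was 0.95 ± 0.32 (adjusted p = 0.221) and its shared part 0.82 ± 0.32 (unadjusted p = 0.0296).

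The clamp gene Pcna read -0.098, 2.01, 0.78 and 0.59 with ethanol in Cy5, and -1.52, -0.42, -0.45 and -0.19 with ethanol in Cy3. The gap between the ranges was small, and the turning part was 0.73 ± 0.33 (adjusted p = 0.358). Chaf1b read 2.10, -0.070, 2.62 and 0.95 with ethanol in Cy5, and 0.29, -3.40 and -0.38 on replicates 2 to 4 with ethanol in Cy3. Its ranges overlapped (turning part 1.28 ± 0.53, adjusted p = 0.324). For Cdc7 the turning part was 1.13 ± 0.50 (adjusted p = 0.357), and without replicate 8 it was 0.74 (unadjusted p = 0.134).

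**Figure D4:**
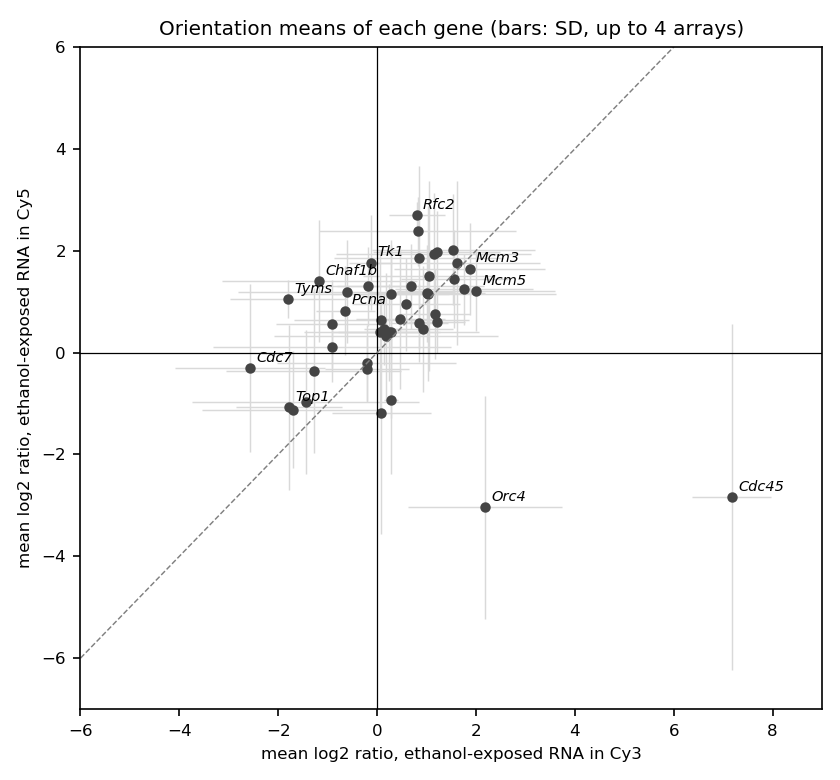
Mean log2 ratio of each tested gene over the arrays with ethanol-exposed RNA in Cy5 (vertical axis) against that over the arrays with it in Cy3 (horizontal axis), sign as deposited, with SD bars over up to 4 arrays and the line of equality dashed. Most points lie in the upper right quadrant (28 of 47), while Cdc45 and Orc4 lie far to the lower right and Tyms to the upper left.

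Other genes of the pathway had values of both signs. Of 34 further replisome and licensing genes 22 were tested, with a median shared part of 0.19 and 13 positive. At p under 0.05 4 were positive (18.2%, against 4.88% of all probes) and 0 negative (against 9.01%), and none passed after adjustment. They were Rnaseh2c, of the RNase that removes RNA from DNA, at 1.33 ± 0.39, the fork protection gene Timeless at 1.16 ± 0.35, the maintenance methyltransferase Dnmt1 at 0.94 ± 0.35 and the third GINS subunit gene Gins3 at 0.85 ± 0.35. Of 35 further genes of nucleotide synthesis 22 were tested, with a median of 0.27. At p under 0.05 1 was positive (4.55%), the nucleoside diphosphate kinase Nme1 at 0.66 ± 0.27, and 1 negative (4.55%), the pyrimidine nucleotide kinase Cmpk1 at -0.91 ± 0.39, shares no higher than those of all probes. The first enzyme of pyrimidine synthesis, Cad, had a turning part of -4.11 ± 0.41 that passed (adjusted p = 0.000298), the same side as Cdc45. Of 12 replication checkpoint genes 9 were tested, with a median of -0.037. At p under 0.05 0 were positive and 2 negative (22.2%, against 9.01% of all probes), the kinase Atr at -1.55 ± 0.54 and the checkpoint clamp loader Rad17 at -1.43 ± 0.56. Differences between these lists and the replication set were not tested.

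Marker genes of the cells that such cultures could hold had shared parts of both signs. Ratios give no level, so that the labelled cell type could only be set against how often its markers had a computable ratio. All 12 neural progenitor markers were tested, 10 of them with values on all 8 arrays, with a median shared part of 0.42. Of them Vim was positive at p under 0.05 (0.98 ± 0.32) and Slc1a3 negative (-0.98 ± 0.33). Neuronal markers had a median of 0.47 over 8 tested of 12, 6 of them positive. One of the 2 negative ones was Dcx, a gene of migrating neurons, at -1.88 ± 0.46 (limma unadjusted p = 0.002). Astrocyte markers had a median of -0.81 over 7 tested of 8, 6 of them negative, with Clu at -1.83 ± 0.57 and S100b at -1.28 ± 0.36. Their array medians ran from -1.80 to 0.49, with 2 of 8 arrays positive. Medians were -0.48 for 7 tested oligodendrocyte lineage markers of 8 and 0.14 for 5 microglial and macrophage markers of 8, 3 of these 5 being positive. They were -0.16 for 6 endothelial markers of 7 and -0.56 for 2 erythroid markers of 5. Negative at p under 0.05 in these lists were the myelin claudin gene Cldn11 at -1.92 ± 0.55, the complement gene C1qa at -1.24 ± 0.38 and the globin gene Hba-a1 at -1.43 ± 0.48, which was negative on 8 of 8 arrays. In the turning part, the largest marker value was that of the progenitor marker Pax6, 3.82 ± 0.84 (limma adjusted p = 0.0572). S100b and C1qa had turning parts of 1.24 ± 0.36 and 1.39 ± 0.38, so that their shared parts average unlike orientations. None of these genes passed in the shared or the turning part after adjustment over all probes. The part of cell composition in the replication ratios was not tested.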

How the data were processed

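Total RNA of ethanol-exposed and control cultures was reverse-transcribed (1 µg) and labelled with Cy3 and Cy5, per the labels' protocols, and hybridised to 8 two-colour arrays. The deposited file holds 1 log2 ratio per probe and array; its scanner, background correction, normalization and direction are not stated by the labels. Per the values, ratios were rounded to 3 decimals and shifted by 1 constant per array. Exact 0 (2565 to 5200 values per array) and each array's highest value (108 to 464) were treated as missing. No value of a member lay at the lowest ratio the rounding can hold, 0.001. The medians of the computable values, -0.435 to 0.516, were subtracted. Replicates 5 to 8 (ethanol-exposed RNA in Cy5) had positive medians of 0.313, 0.229, 0.023 and 0.516. Replicates 1 to 4 (ethanol-exposed RNA in Cy3) had negative ones of -0.375, -0.435, -0.324 and -0.331. The sign of the median thus followed the orientation, and centring removed this difference. Its source was not tested. The number of arrays limits the precision.

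Probes with values on 3 or more arrays of each orientation were fitted in R 4.3.3 with the linear models and moderated variances of limma 3.58.1, on the shared and the turning coefficient, with Benjamini-Hochberg adjustment over all 15345 probes and a threshold of 0.05. Symbols came from the platform annotation, updated by Entrez number through a GRCm38.p6 table (15957 matches); 16635 probes had 1 symbol, 113 several and 4834 none. A gene with several tested probes was represented by the one with the most values. Values by array are printed for up to 15 members in the shared and 8 in the turning part, by smallest unadjusted p under 0.05. Arrays that share a code number (replicates 5 and 1, 7 and 2, 8 and 3) did not deviate together over all tested probes (correlations 0.0137, -0.0157 and 0.0442). They were not treated as pairs. This correlation was not computed for the replication genes alone. The members, lists and tests were chosen with earlier results of these data known, and the comparisons of subunits within a complex and the promoter motif search were added after the values were seen.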

Additional observations from a re-analysis of the deposited data

Results flagged for a closer look

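Cdc45 differed between the dye orientations by the limma test of that difference, with a turning part of -5.01 (adjusted p = 0.0054).

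Within an orientation, single arrays stood apart from the other 3 by Dixon's criterion in 3 of 41 groups of 4 arrays; chance flags about 1 in 20 groups. Fen1 read 1.52 on replicate 6, with ethanol in Cy5. Tyms read 1.59 on replicate 5, with ethanol in Cy5. Gins1 read -0.32 on replicate 4, with ethanol in Cy3.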

How the results depend on the processing

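The results were recomputed under 20 alternatives, 8 of which left out 1 array each. In the shared part no member passed after adjustment under any of them; the number positive at an unadjusted p under 0.05 was 13 to 21, and the median 0.49 to 0.82. Leaving out single arrays gave 14 to 21 positive members, 3 to 4 negative ones and a median of 0.51 to 0.82. In the turning part it gave 1 to 2 members called after adjustment, 4 to 5 positive and 2 negative at an unadjusted p under 0.05, and a median of -0.03 to 0.41. Over all alternatives these were 2 to 9 positive, 2 to 3 negative and a median of -0.03 to 0.51, the highest count and median being those without centring. The turning part called 2 members with array weights, 2 with values on all 8 arrays, 3 without centring, 2 without replicate 6, and 0 without the r arrays, where 41 members had values and 2 were positive at an unadjusted p under 0.05. The members added were Orc4 and, without centring, Rfc2 and Tyms. With exact 0 kept as a value, Gins2 read -0.041 in the shared part, because its second probe, which holds zeros, then stood for the gene. With the array code number as a replicate block (consensus correlation 0.00891) the counts were 19 and 3 in the shared part. Averaging all tested probes of a gene left the members' values as they were, since each has 1. No signal intensities were used, so that faint spots could not be filtered.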
